A study of Mus musculus with 6 samples.

Results

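The 10 genes described here govern how glucose enters heart muscle and how its product, pyruvate, enters the mitochondrion and is committed to oxidation. They were chosen by name, with earlier results of these data known, and all 10 were found among the 54532 genes of the deposited expression table. They comprise the glucose transporters Slc2a1 and Slc2a4, the pyruvate carrier subunits Mpc1 and Mpc2, the pyruvate dehydrogenase subunits Pdha1 and Dlat, the pyruvate dehydrogenase kinases Pdk1, Pdk2 and Pdk4, and the phosphatase Pdp1. RNA of whole heart tissue (ventricular, by the study's methods) was compared between 3 control mice (Ctrl) and 3 conditional knockout mice (cKO). Both groups were homozygous for a floxed allele of Mrps5, which encodes a component of the mitoribosomal small subunit, and both received tamoxifen by intraperitoneal injection at 45 mg/kg/day for 5 days from 8 weeks of age. The cKO mice carried in addition MCM, the MerCreMer transgene, in which the αMHC promoter drives a tamoxifen-dependent Cre recombinase in cardiomyocytes. By the labels, hearts were collected 12 weeks after tamoxifen. No group carried MCM without the floxed alleles, so the effects of MCM and of the Mrps5 deletion cannot be told apart, and Mrps5 remained intact in cells in which αMHC is silent.

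Glucose enters cardiomyocytes through GLUT4 (Slc2a4), which insulin and contraction bring to the cell surface, and through GLUT1 (Slc2a1), which sits at the surface without insulin and predominates in the fetal heart. Glycolysis turns glucose into pyruvate, which the MPC1-MPC2 heterodimer carries across the inner mitochondrial membrane. The pyruvate dehydrogenase complex then converts it to acetyl-CoA, and its activity is set by phosphorylation of the E1 alpha subunit (Pdha1), with the kinases PDK1 to PDK4 switching it off and the phosphatases PDP1 and PDP2 switching it on. In the adult heart PDK4 mRNA is known for its response to fatty acids and fasting through PPAR alpha, estrogen-related receptors and FOXO factors.

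The libraries held between 15989322 and 24875499 reads assigned to genes, as worked back from the deposited values. Values are FPKM (fragments per kilobase of gene, scaled to library size), and errors given as ± are SD over 3 hearts. Mrps5 was at 5.20, 6.45 and 6.33 FPKM in Ctrl hearts, compared with 1.12, 1.23 and 1.31 FPKM in cKO hearts, so it was lower in each heart labelled cKO. In cKO replicate 2 alone, Xist exceeded 1 FPKM (10.7 FPKM) and the Y-linked Ddx3y was at 0, the pattern of a female heart. Ddx3y was at 12.7 to 17.7 FPKM in the other hearts, the pattern of male hearts. Sex was by these values unbalanced between the groups, although the study reports using male mice only. For some results that turn on cKO replicate 2, values without it are also given. All 10 cardiomyocyte markers examined were expressed in each heart. Fold changes are the cKO minus Ctrl differences of log2(FPKM + 1) with their SE, tested with limma over the 12944 genes that averaged 0.5 FPKM or more, and adjusted by Benjamini-Hochberg, with 0.05 as the threshold. Adding 1 makes fold changes of weakly expressed genes appear smaller than they were.

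To see what surrounds the start sites of the genes that passed the test, the RefSeq promoter windows of the 10 genes (250 bases before to 50 bases after a start, build GRCm38.p6) were read and searched on both strands. Windows were found for 8 of the 10 genes, all but Slc2a4 and Pdp1, and where 2 starts were listed the more upstream was used. The motifs searched were the E-box CACGTG, the hypoxia response element ACGTG, the estrogen-related receptor element TCAAGGTCA and the forkhead element TGTTTAC. The 4 windows that belong to genes past the test are printed in lower case, 5′ to 3′ on the gene's own strand, with motif matches in capitals. They lie at chr4:119108495-119108794 (plus strand) for Slc2a1, chr17:8283537-8283836 (plus) for Mpc1, chr1:165461010-165461309 (plus) for Mpc2 and chr11:95041322-95041621 (minus) for Pdk2.
Slc2a1: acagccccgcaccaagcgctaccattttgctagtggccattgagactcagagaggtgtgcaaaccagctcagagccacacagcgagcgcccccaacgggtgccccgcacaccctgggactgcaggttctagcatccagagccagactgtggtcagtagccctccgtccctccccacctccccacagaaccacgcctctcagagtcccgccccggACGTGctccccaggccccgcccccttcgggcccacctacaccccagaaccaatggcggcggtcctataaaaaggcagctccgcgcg
Mpc1: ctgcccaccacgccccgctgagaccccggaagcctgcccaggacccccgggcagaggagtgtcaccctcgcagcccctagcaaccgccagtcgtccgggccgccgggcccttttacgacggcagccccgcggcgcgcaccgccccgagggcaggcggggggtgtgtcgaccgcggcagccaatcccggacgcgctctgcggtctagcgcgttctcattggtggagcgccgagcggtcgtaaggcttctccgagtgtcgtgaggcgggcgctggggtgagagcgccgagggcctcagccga
Mpc2: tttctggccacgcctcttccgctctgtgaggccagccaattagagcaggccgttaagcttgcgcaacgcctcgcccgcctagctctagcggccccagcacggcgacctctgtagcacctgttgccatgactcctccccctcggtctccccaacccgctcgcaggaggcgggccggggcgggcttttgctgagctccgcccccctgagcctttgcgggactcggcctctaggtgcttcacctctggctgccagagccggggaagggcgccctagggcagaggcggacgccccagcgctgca
Pdk2: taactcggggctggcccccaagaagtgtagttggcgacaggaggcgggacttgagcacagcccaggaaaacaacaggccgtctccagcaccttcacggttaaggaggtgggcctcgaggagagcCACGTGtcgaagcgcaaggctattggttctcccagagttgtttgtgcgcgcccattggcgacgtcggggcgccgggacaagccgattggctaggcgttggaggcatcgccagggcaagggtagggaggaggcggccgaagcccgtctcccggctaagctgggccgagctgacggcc

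The Slc2a1 window held 1 ACGTG match, whose first base lay 36 bases before the start, and the Pdk2 window held 1 E-box, beginning 126 bases before the start. An E-box contains ACGTG on both strands, so the Pdk2 match also counts as 2 matches to the shorter motif. The other 6 windows held none of the 4 motifs. Of 32851 mouse promoter windows of this length, 7.15% held the E-box, 19.6% the ACGTG motif, 3.65% the forkhead element and 0.423% the estrogen-related receptor element. The 8 windows were richer in G and C (60.7% to 73.7%) than the median window (52.7%) and held 12 to 39 CpG dinucleotides against a median of 7. A match is a run of letters, not a bound site.

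The 2 glucose transporters changed in opposite directions. Slc2a1 rose 2.18-fold in cKO hearts, whereas Slc2a4 fell to 52.9% of Ctrl. Of the other genes, both pyruvate carrier subunits and Pdk2 were also lower in cKO hearts. In all, 1 of the 10 genes was higher and 4 were lower past the threshold, against a background over all genes tested of 16.3% higher and 17% lower (33.3% in either direction). FPKM of the groups did not overlap for 9 of the 10 genes, while this held for 51.2% of all genes tested. The median log2 fold change of the 10 genes was -0.26, against -0.02 over all genes tested, and 9 of the 10 fold changes were negative. Because the 10 genes were chosen with earlier results of these data known, these comparisons are descriptions and not tests. Over all genes, 2110 were higher and 2205 lower in cKO hearts. When the libraries were scaled without mtDNA-encoded genes the split was 2649 to 1620, and the counts for the 10 genes were as before (1 higher, 4 lower).

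**Figure D1:**
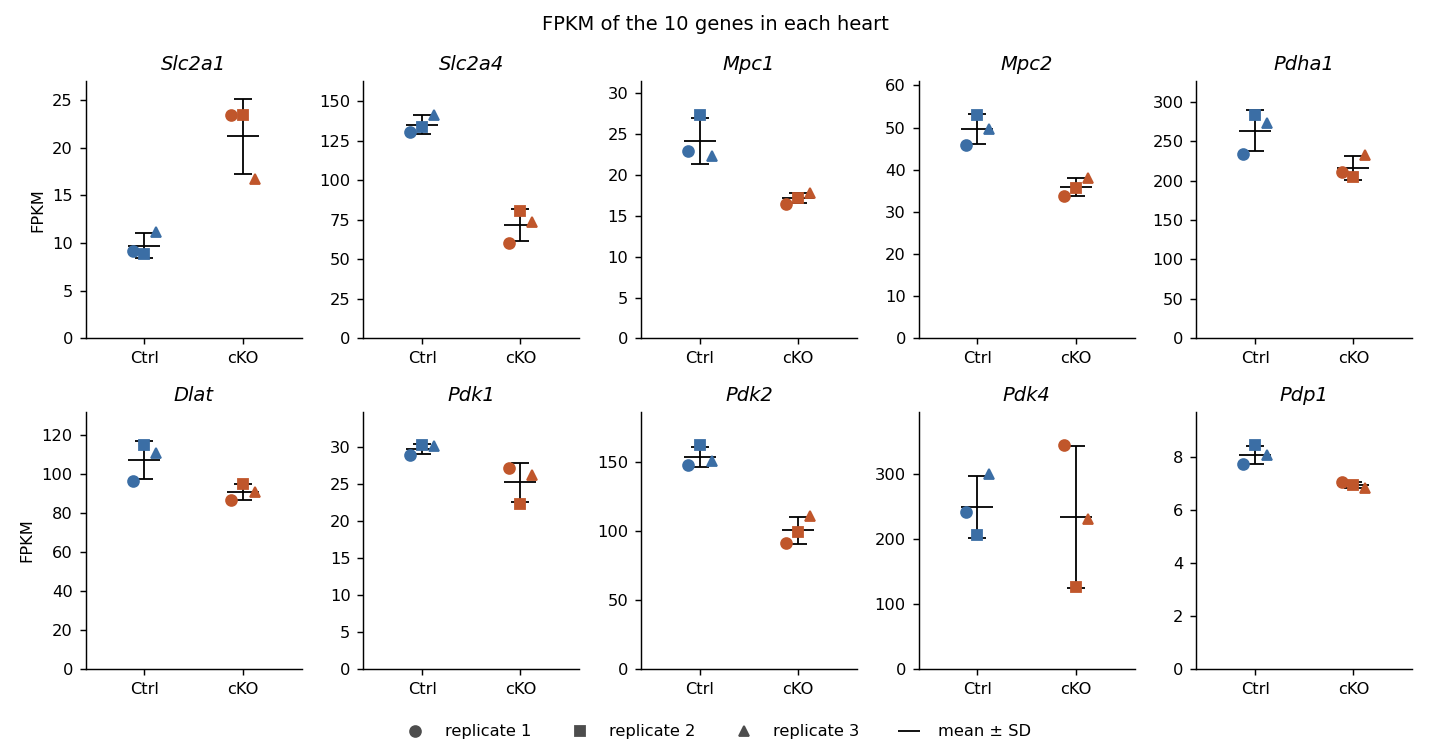
Expression of the 10 genes in each heart. Each panel plots FPKM (vertical axis, from 0) of 1 gene in 3 Ctrl hearts (blue) and 3 cKO hearts (orange), with marker shape giving the replicate and black bars the mean ± SD. Only Slc2a1 lies higher in all cKO hearts, at 16.6 to 23.5 FPKM against 8.79 to 11.2 FPKM, and Pdk4 is the only gene whose groups overlap.

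Slc2a1 (GLUT1, ENSMUSG00000028645) spans bases 119108711 to 119137983 of chromosome 4 on the plus strand. Replicates 1, 2 and 3 (the order used for all genes) had 9.13, 8.79 and 11.2 FPKM in Ctrl hearts, compared with 23.4, 23.5 and 16.6 FPKM in cKO hearts. All cKO hearts lay above all Ctrl hearts, and cKO replicate 3 was the lowest of its group. The means were 9.70 ± 1.29 and 21.2 ± 3.91 FPKM (n = 3 each), a log2 fold change of 1.04 (SE 0.15, 95% interval 0.68 to 1.4, adjusted p = 0.00365). Reads assigned to Slc2a1 numbered 610 to 1920 per heart. The annotated antisense genes Gm12867 and Gm12868 and the microRNA gene Mir1957a overlap it, with mean values of 0, 0.157 and 0.233 FPKM.

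Slc2a4 (GLUT4, ENSMUSG00000018566) spans bases 69942539 to 69948188 of chromosome 11 on the minus strand. It had 130.4, 133.9 and 141.6 FPKM in Ctrl hearts but 60.4, 80.4 and 73.6 FPKM in cKO hearts. The highest cKO heart was thus well under the lowest Ctrl heart. The means were 135.3 ± 5.76 and 71.5 ± 10.2 FPKM, with a log2 fold change of -0.92 (SE 0.11, 95% interval -1.19 to -0.65, adjusted p = 0.00235).

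Because the 2 transporters moved apart, their proportion was compared within each heart, which does not depend on scaling between libraries. Slc2a1 made up 6.54%, 6.16% and 7.32% of the summed Slc2a1 and Slc2a4 FPKM in Ctrl hearts and 27.9%, 22.6% and 18.4% in cKO hearts. The share was 16.3 percentage points higher in cKO hearts (6.67% ± 0.588 against 23.0% ± 4.75), with no overlap. The exact two-sided permutation test gave p = 0.1, the smallest that 3 against 3 hearts allow (20 label orders). The summed FPKM of the pair was lower in cKO hearts without overlap, at 139.5, 142.7 and 152.8 FPKM in Ctrl and 83.8, 103.9 and 90.3 FPKM in cKO (145.0 ± 6.95 against 92.7 ± 10.2, exact permutation p = 0.1). Slc2a4 therefore still supplied most of the transporter mRNA in each cKO heart. At this time after deletion the study describes glycolysis genes and proteins as lower in cKO hearts. Its immunoblots there include GLUT1, GLUT4 and the hexokinase HK1. Here Slc2a4 mRNA was lower in cKO hearts, whereas Slc2a1 mRNA and Hk1 mRNA were higher, opposite to that description. The values here are of mRNA and do not give protein levels or glucose uptake.

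**Figure D2:**
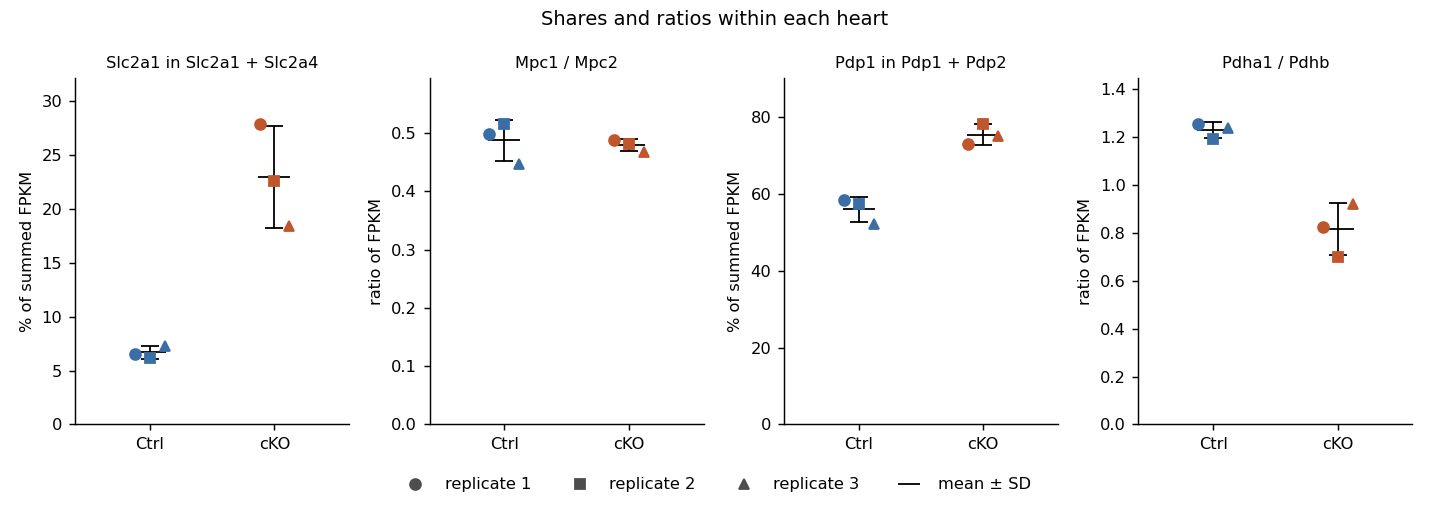
Shares and ratios within each heart for Ctrl (blue) and cKO (orange). The panels plot the percent of Slc2a1 in the summed FPKM of Slc2a1 and Slc2a4, the ratio of Mpc1 to Mpc2 FPKM, the percent of Pdp1 in Pdp1 plus Pdp2, and the ratio of Pdha1 to Pdhb FPKM. Points are hearts and black bars the mean ± SD. The Slc2a1 share (6.67% against 23.0%), the Pdp1 share (56.0% against 75.5%) and Pdha1 to Pdhb (1.23 against 0.815) separate the groups, whereas Mpc1 to Mpc2 (0.487 against 0.479) overlaps.

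Mpc1 and Mpc2, the obligate partners of the mitochondrial pyruvate carrier, were both lower in cKO hearts. Mpc1 (ENSMUSG00000023861, chromosome 17, 8282904 to 8297661, plus strand) was at 22.9, 27.4 and 22.3 FPKM in Ctrl hearts, compared with 16.5, 17.2 and 17.8 FPKM in cKO hearts. The cKO hearts lay within a narrow range below all Ctrl hearts, at 71.0% of the Ctrl mean (24.2 ± 2.80 against 17.2 ± 0.651 FPKM, log2 fold change -0.47, SE 0.09, adjusted p = 0.0108). Mpc2 (ENSMUSG00000026568, chromosome 1, 165460637 to 165481214, plus strand) was at 46.0, 53.1 and 49.8 FPKM in Ctrl hearts, compared with 33.9, 35.8 and 38.1 FPKM in cKO hearts. Its groups did not overlap either, and its cKO mean was 72.4% of Ctrl (49.6 ± 3.55 against 35.9 ± 2.10 FPKM, log2 fold change -0.46, SE 0.08, adjusted p = 0.00784). The ratio of Mpc1 to Mpc2 was 0.498, 0.517 and 0.448 in Ctrl and 0.488, 0.482 and 0.468 in cKO hearts. These ratios overlapped (difference -0.008, exact permutation p = 0.8).

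The 2 members that encode the complex itself did not pass the threshold. Pdha1 (E1 alpha, the subunit that the kinases phosphorylate, ENSMUSG00000031299, chromosome X, 160122209 to 160138413, minus strand) was at 234.0, 283.7 and 272.9 FPKM in Ctrl hearts, compared with 210.6, 204.0 and 233.1 FPKM in cKO hearts. The highest cKO heart lay just under the lowest Ctrl heart, and the log2 fold change was -0.28 (SE 0.10, 95% interval -0.52 to -0.04, adjusted p = 0.0707). Of 14 alternative fits it passed only in the one without Ctrl replicate 1, at -0.37 (adjusted p = 0.0461). Adjusted p reached 0.187 in the others. With libraries scaled without mtDNA-encoded genes, the Pdha1 difference was -0.20 (adjusted p = 0.148). Dlat (the E2 acetyltransferase core, ENSMUSG00000000168, chromosome 9, 50634633 to 50659780, minus strand) was at 96.5, 114.8 and 111.0 FPKM in Ctrl hearts, compared with 86.9, 94.8 and 91.1 FPKM in cKO hearts. Again the groups did not overlap, with a log2 fold change of -0.24 (SE 0.09, 95% interval -0.45 to -0.02, adjusted p = 0.0845). The Pdha1 to Dlat ratio was 2.45 ± 0.024 in Ctrl and 2.38 ± 0.207 in cKO hearts (exact permutation p = 0.7), a difference of -0.074 that was 0.040 without cKO replicate 2.

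The other genes of the complex were read beside them. Pdhb, the beta subunit that pairs with Pdha1 in E1, was at 186.4, 237.9 and 220.6 FPKM in Ctrl hearts, compared with 255.2, 291.0 and 253.7 FPKM in cKO hearts. Here the cKO hearts lay above all Ctrl hearts, although the difference did not pass (log2 fold change 0.31, SE 0.11, adjusted p = 0.0727). It passed when the libraries were scaled without mtDNA-encoded genes (0.40, adjusted p = 0.0187) and with voom on the recovered reads (0.34, adjusted p = 0.0427). Pdhx, which anchors E3 to the core, was at 39.6 ± 3.89 in Ctrl and 33.5 ± 2.95 FPKM in cKO hearts (log2 fold change -0.23, adjusted p = 0.123). Dld, the E3 dehydrogenase shared with other complexes, was at 140.4 ± 11.3 and 121.8 ± 4.49 FPKM (log2 fold change -0.20, adjusted p = 0.111). A ratio chosen after these values were seen, Pdha1 to Pdhb, was 1.26, 1.19 and 1.24 in Ctrl and 0.825, 0.701 and 0.919 in cKO hearts, without overlap (difference -0.41, exact permutation p = 0.1). The mRNAs of the E1 partners were thus in a different proportion in cKO hearts, with Pdha1 above Pdhb in each Ctrl heart and below it in each cKO heart.

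**Figure D3:**
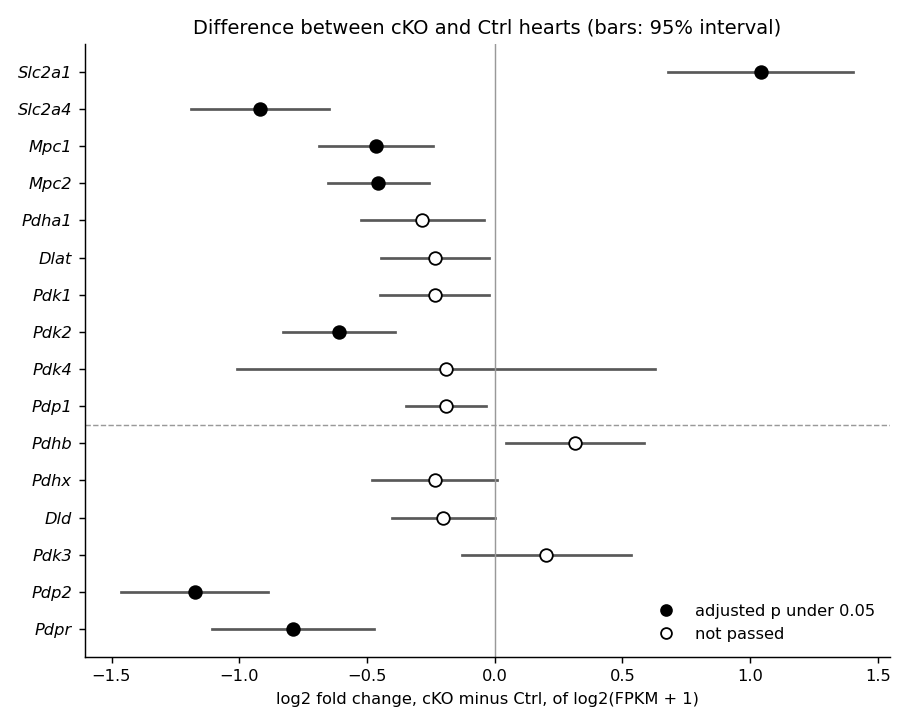
Log2 fold change (cKO minus Ctrl, on the log2(FPKM + 1) scale, horizontal axis) with its 95% interval for the 10 genes (above the dashed line) and the other genes of the pyruvate dehydrogenase complex and its control (below). Filled points passed the adjusted threshold. Slc2a1 at 1.04 and Pdp2 at -1.18 lie at the extremes, and the interval of Pdk4 is the widest, from -1.01 to 0.63.

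Among the kinases, which inactivate the complex, only Pdk2 passed the test. Pdk2 (ENSMUSG00000038967, chromosome 11, 95026258 to 95041354, minus strand), the broadly expressed isoform, was at 148.2, 162.1 and 151.1 FPKM in Ctrl hearts, compared with 91.5, 99.5 and 110.9 FPKM in cKO hearts. All cKO hearts were lower, at 65.4% of the Ctrl mean (153.8 ± 7.31 against 100.6 ± 9.71 FPKM, log2 fold change -0.61, SE 0.09, 95% interval -0.83 to -0.39, adjusted p = 0.00399). Pdk1 (ENSMUSG00000006494, chromosome 2, 71873224 to 71903858, plus strand), the isoform known as a target of HIF-1, was at 28.9, 30.2 and 30.1 FPKM in Ctrl hearts, compared with 27.2, 22.2 and 26.1 FPKM in cKO hearts. Its groups did not overlap, but the log2 fold change of -0.23 (SE 0.09, 95% interval -0.45 to -0.02) had an adjusted p of 0.0864.

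Pdk4 (ENSMUSG00000019577, chromosome 6, 5483351 to 5496309, minus strand), the most abundant of the kinase mRNAs, varied more between hearts of a group than between groups. It was at 242.5, 206.1 and 300.6 FPKM in Ctrl hearts, compared with 344.7, 126.8 and 230.9 FPKM in cKO hearts. The highest and the lowest of the 6 hearts were both cKO hearts, and the coefficient of variation was 46.6% in cKO and 19.1% in Ctrl. The log2 fold change was -0.19 with a 95% interval from -1.01 to 0.63 (SE 0.34, adjusted p = 0.702), an interval that holds both a decrease and an increase. The sign turned on cKO replicate 2, without which the difference was 0.19 (adjusted p = 0.536), and without cKO replicate 1 it was -0.53 (adjusted p = 0.219). cKO replicate 2 is the heart with the female pattern of Xist and Ddx3y, and the part of sex in the Pdk4 value was not tested.

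As shares of the summed kinase mRNA, Pdk4 made up 57.6%, 51.6% and 62.3% in Ctrl and 74.3%, 50.7% and 62.5% in cKO hearts (exact permutation p = 0.6). Pdk2 made up 35.2%, 40.6% and 31.3% in Ctrl and 19.7%, 39.8% and 30.0% in cKO hearts (exact permutation p = 0.4). The Pdk2 difference was -5.9 points, or -10.8 points without cKO replicate 2 and -0.80 points without cKO replicate 1. For Pdk4 these differences were 5.3, 11.2 and -0.56 points. Without cKO replicate 2 the groups did not overlap for either share. In each heart Pdk4 exceeded Pdk2. Pdk1 had 6.88% ± 0.663 and 7.27% ± 1.53 (exact permutation p = 0.8), a difference of 0.39 points that was -0.42 points without cKO replicate 2. Pdk3, at 0.920 ± 0.24 FPKM in Ctrl and 1.21 ± 0.311 FPKM in cKO hearts, contributed 0.215% and 0.373%, and its log2 fold change of 0.20 did not pass (adjusted p = 0.303). The summed kinase mRNA was at 434.2 ± 43.2 and 361.1 ± 107.5 FPKM with overlapping groups (exact permutation p = 0.4). A share chosen after the values were seen, that of Pdk2 in Pdk1 plus Pdk2, was 83.8% ± 0.462 in Ctrl and 79.9% ± 2.46 in cKO hearts without overlap (exact permutation p = 0.1).

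**Figure D4:**
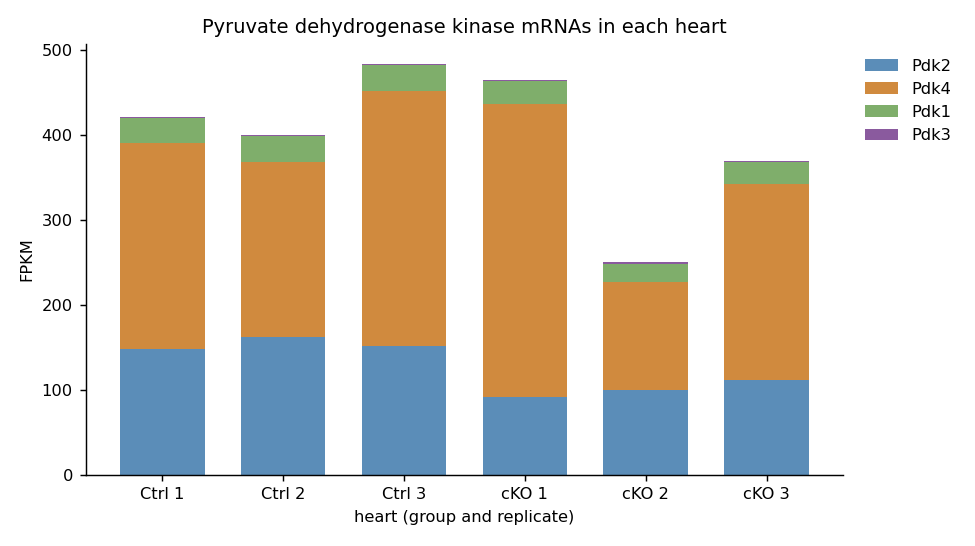
FPKM of the 4 pyruvate dehydrogenase kinase mRNAs stacked for each of the 6 hearts (horizontal axis, group and replicate; vertical axis, FPKM from 0). The Pdk2 segment (blue, at the base) is shorter in all cKO hearts, at 91.5 to 110.9 FPKM against 148.2 to 162.1 FPKM, while the Pdk4 segment (orange) ranges from 126.8 to 344.7 FPKM among cKO hearts and Pdk3 is barely visible.

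On the phosphatase side, which reactivates the complex, the 2 catalytic subunits differed. Pdp1 (ENSMUSG00000049225, chromosome 4, 11958184 to 11966452, minus strand), the calcium-stimulated isoform, was at 7.76, 8.45 and 8.07 FPKM in Ctrl hearts, compared with 7.05, 6.96 and 6.85 FPKM in cKO hearts. The groups did not overlap, and the log2 fold change of -0.19 (SE 0.07, 95% interval -0.35 to -0.04) did not pass (adjusted p = 0.0626). Pdp2, the isoform that responds to insulin, was at 5.53, 6.29 and 7.36 FPKM in Ctrl hearts, compared with 2.61, 1.92 and 2.28 FPKM in cKO hearts. Pdp2 fell to 35.5% of Ctrl (log2 fold change -1.18, SE 0.12, adjusted p = 0.00145). Pdpr, the regulatory subunit of the phosphatase, fell to 55.8% (21.5 ± 3.02 against 12.0 ± 1.65 FPKM, log2 fold change -0.79, SE 0.13, adjusted p = 0.00594); an annotated gene, 9430091E24Rik, overlaps it.

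Pdp1 accordingly made up 58.4%, 57.3% and 52.3% of the catalytic phosphatase mRNA in Ctrl and 73.0%, 78.4% and 75.1% in cKO hearts, a difference of 19.5 percentage points without overlap (exact permutation p = 0.1). The summed Pdp1 and Pdp2 FPKM was 14.5 ± 1.09 in Ctrl and 9.22 ± 0.405 in cKO hearts, also without overlap (exact permutation p = 0.1). The ratio of the kinase sum to the phosphatase sum was 31.7, 27.1 and 31.2 in Ctrl and 48.0, 28.2 and 40.4 in cKO hearts. These ranges overlapped through cKO replicate 2 (30.0 ± 2.54 against 38.9 ± 10, exact permutation p = 0.3). The difference of 8.88 was 14.2 without that heart and 4.30 without cKO replicate 1.

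FPKM is per length of the annotated gene, so levels were ordered between genes on that footing. These lengths differ (2082 bases for Mpc1, 7344 for Mpc2 and 7779 for Pdk1) and need not be those of the mRNA expressed. The order, and the size of ratios and shares between genes, therefore depend on the annotation. In Ctrl hearts the order of mean FPKM was Pdha1, Pdk4, Pdk2, Slc2a4, Dlat, Mpc2, Pdk1, Mpc1, Slc2a1 and Pdp1, and only the first neighbours, Pdha1 and Pdk4, overlapped in range. In cKO hearts the order was Pdk4, Pdha1, Pdk2, Dlat, Slc2a4, Mpc2, Pdk1, Slc2a1, Mpc1 and Pdp1. There Pdk4 overlapped Pdha1, Pdk2 overlapped Dlat, and Slc2a1 overlapped both Pdk1 and Mpc1. Slc2a4 was above Dlat in each Ctrl heart and below it in each cKO heart.

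Genes on either side of the 10 were examined from lists chosen for their role, whose counts stand against 16.3% higher and 17% lower over all genes tested. These lists too were chosen with earlier results of these data known, so their counts are descriptions only. Of 9 other glucose transporter genes, 3 passed the filter and 2 were lower. Slc2a12 (GLUT12) fell from 2.02 ± 0.246 to 0.847 ± 0.285 FPKM (log2 difference -0.72, adjusted p = 0.0068; its gene overlaps Tbpl1). Slc2a8 (GLUT8) fell from 5.91 ± 0.269 to 3.98 ± 0.747 FPKM (log2 difference -0.48, adjusted p = 0.018). The Slc2a8 call was lost without Ctrl replicate 1 or 3 or cKO replicate 1 or 3 (adjusted p of 0.0532 to 0.0617).

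Of 13 genes of GLUT4 trafficking and glucose uptake control, 3 were higher, 1 was lower and 9 did not pass, with a median log2 fold change of -0.07. Calls in this list were thus about as frequent as over all genes tested (33.3% in either direction), and the genes named are single values. Myo1c, the motor that tethers GLUT4 vesicles near the membrane, rose from 22.3 ± 1.66 to 47.2 ± 6.12 FPKM (log2 difference 1.04, adjusted p = 0.00148). Aspscr1 (TUG), which holds GLUT4 vesicles inside the unstimulated cell, rose from 4.80 ± 0.407 to 8.37 ± 1.27 FPKM (0.69, adjusted p = 0.00553). Arrdc4, an arrestin that restrains glucose uptake, rose from 2.38 ± 0.063 to 3.82 ± 0.377 FPKM (0.51, adjusted p = 0.0048). Tbc1d4 (AS160), the Rab GTPase-activating protein through which insulin releases GLUT4, fell from 15.5 ± 0.325 to 8.89 ± 1.71 FPKM (-0.75, adjusted p = 0.00614). Txnip, which promotes transporter endocytosis and had the highest mean of the list, was at 118.8 ± 49.2 and 120.3 ± 29.9 FPKM (0.07, adjusted p = 0.882), and its sign turned negative without Ctrl replicate 1 or 2 or cKO replicate 1.

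Hexokinases trap glucose by phosphorylation. Hk1 was at 26.2, 24.3 and 34.0 FPKM in Ctrl hearts, compared with 55.1, 58.2 and 46.2 FPKM in cKO hearts, an increase without overlap (log2 fold change 0.90, SE 0.14, adjusted p = 0.00498). Hk2, the insulin-responsive isoform of adult muscle, was at 53.4, 65.1 and 64.9 FPKM in Ctrl hearts, compared with 35.6, 72.0 and 44.4 FPKM in cKO hearts. cKO replicate 2 was the highest of all 6 hearts for Hk2, and the difference of -0.32 (adjusted p = 0.343) passed without that heart (-0.60, adjusted p = 0.0213). Hk1 made up 31.5% ± 3.78 of Hk1 plus Hk2 in Ctrl and 52.1% ± 8.09 in cKO hearts without overlap, a share chosen after the values were seen (exact permutation p = 0.1).

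Of the 8 genes of lactate conversion and transport, 6 passed the filter, of which 3 were lower, none was higher and 3 did not pass. Ldhb, the heart-type lactate dehydrogenase subunit, fell from 884.5 ± 49.0 to 568.6 ± 25.6 FPKM (log2 difference -0.64, adjusted p = 0.00276). Ldhd, the D-lactate dehydrogenase, fell from 11.6 ± 0.392 to 4.97 ± 0.865 FPKM (-1.09, adjusted p = 0.00153; its gene overlaps Znrf1). Ldha, the muscle-type subunit, was at 215.2 ± 28.3 and 168.0 ± 4.09 FPKM (-0.35, adjusted p = 0.0468), a call lost under 9 of 14 alternatives (adjusted p of 0.0181 to 0.141 over all 14), among them leaving out Ctrl replicate 2 or 3 or any of the cKO hearts. Bsg, the chaperone of the monocarboxylate transporters, had the highest mean of the list, at 756.8 ± 79.7 and 772.2 ± 16.8 FPKM (0.03, adjusted p = 0.812, and negative without Ctrl replicate 1).

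Dlat carries lipoic acid as its cofactor, and of 7 genes of lipoic acid synthesis 2 were lower and 5 did not pass. Ndufab1, the mitochondrial acyl carrier protein, fell from 48.8 ± 1.64 to 35.6 ± 1.16 FPKM (log2 difference -0.44, adjusted p = 0.00411). Oxsm, the ketoacyl synthase of the same pathway, fell from 7.26 ± 0.168 to 5.08 ± 0.647 FPKM (-0.45, adjusted p = 0.011). Of 6 further enzymes that use or make pyruvate, 1 was higher and 2 were lower. The alanine transaminase Gpt fell from 11.7 ± 1.72 to 6.13 ± 1.38 FPKM (-0.85, adjusted p = 0.00786), and the mitochondrial malic enzyme Me3 fell from 5.22 ± 0.527 to 3.00 ± 0.559 FPKM (-0.64, adjusted p = 0.00892). Me2, another mitochondrial malic enzyme, rose from 4.39 ± 0.238 to 5.98 ± 0.462 FPKM (0.37, adjusted p = 0.0135), a call at the threshold without Ctrl replicate 3 (adjusted p = 0.0504). The cytosolic Me1 was at 36.6 ± 3.91 and 41.6 ± 6.38 FPKM (0.17, adjusted p = 0.353).

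Of 14 regulators known to act on Pdk4 or Slc2a4 transcription, 2 were higher, 6 were lower and 6 did not pass, against 16.3% higher and 17% lower over all genes tested. FPKM did not overlap between groups for 12 of the 14, against 51.2% of all genes tested. As with the other lists, the choice was made with earlier results of these data known. The zinc finger factor Klf15, an activator of Slc2a4, fell from 33.3 ± 9.77 to 15.9 ± 2.96 FPKM (log2 difference -0.999, adjusted p = 0.0137). Foxo3 fell from 23.6 ± 3.68 to 12.6 ± 3.35 FPKM (-0.88, adjusted p = 0.017), and the coactivator Ppargc1a fell from 20.2 ± 2.87 to 12.6 ± 1.88 FPKM (-0.64, adjusted p = 0.0143). The calls of both were lost without Ctrl replicate 2 or without Ctrl replicate 3 (adjusted p of 0.0523 and 0.0584 for Foxo3, and of 0.0502 and 0.0507 for Ppargc1a). Esrrg fell from 9.02 ± 0.282 to 5.49 ± 0.684 FPKM (-0.63, adjusted p = 0.00358). Esrra, with the highest mean of the list, was at 92.6 ± 6.11 and 82.1 ± 4.36 FPKM (-0.17, adjusted p = 0.15). The remaining 4 that passed, named after their values were seen, were Ppara (log2 fold change -0.56) and Foxo1 (-0.53), which were lower, and Hif1a (0.58) and Ppard (0.30), which were higher.

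These are whole-tissue values, in which fewer cells of a type and less RNA per cell cannot be told apart. Of 10 cardiomyocyte markers 7 were lower and none higher (median log2 fold change -0.62), with summed FPKM of 19420 to 23840 in Ctrl and 11220 to 18400 in cKO hearts. Of 7 endothelial markers 4 were lower and none higher (median -0.58), with sums of 313.5 to 327.9 and 183.0 to 200.6 FPKM. Slc2a4, Pdk2, Mpc1 and Mpc2 therefore moved in the same direction as both marker lists and Slc2a1 in the opposite one. Of 7 fibroblast markers 1 was lower (sums of 219.8 to 246.3 and 183.4 to 198.4 FPKM), and of 6 macrophage and leukocyte markers past the filter 1 was lower (sums of 299.7 to 407.9 and 238.0 to 351.0 FPKM). Only 4 of 7 adipocyte markers and 6 of 7 red cell markers were past the filter and tested. No adipocyte, red cell or atrial marker passed the test. Their sums differed widely between hearts of a group, at 5.14 to 25.0 and 2.34 to 16.5 FPKM for adipocyte, 881.1 to 2058 and 586.0 to 1590 FPKM for red cell, and 28.3 to 1024 and 109.6 to 760.5 FPKM for atrial markers. Lep, an adipocyte marker, was at 0.0313, 0.0143 and 0 FPKM in Ctrl hearts and listed at 0 in each cKO heart. The part of cell composition in the changes of the 10 genes was not tested.

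In a comparison chosen after the values were seen, Slc2a4 and Pdk2 were set against each of the 10 cardiomyocyte markers within each heart. Against Tnnt2, which itself was at 67.0% of Ctrl, the Slc2a4 ratio was 0.1304, 0.1156 and 0.1386 in Ctrl and 0.0932, 0.1003 and 0.1084 in cKO hearts, without overlap (exact permutation p = 0.1). The Pdk2 to Tnnt2 ratio was 0.148, 0.140 and 0.148 in Ctrl and 0.141, 0.124 and 0.163 in cKO hearts, with overlap (exact permutation p = 0.8, difference -0.0025, and 0.0068 without cKO replicate 2). The outcome differed with the marker taken. The Slc2a4 ratio was lower in cKO hearts without overlap for 5 markers, overlapped for 4 (Atp2a2 among them) and was higher without overlap for Pln, which was itself at 37.3% of Ctrl. The Pdk2 ratio overlapped for 7 markers, was lower for Ttn and was higher for Pln and Atp2a2. Some of the overlaps came from cKO replicate 2 alone. Without that heart the Slc2a4 ratios to Tnni3 and Ryr2 were also lower in cKO hearts without overlap. The Pdk2 ratios to Myh6 and Myl2 were then higher without overlap.

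For the transporters, the protein-coding genes whose log2(FPKM + 1) followed them most closely over the 6 hearts were identified among 5512 genes averaging 5 FPKM or more. They were Hyal2 (Pearson r = 0.9993), Nisch (0.9954) and Sec24c (0.9943) for Slc2a1, and Cebpzos (0.9968), Trip10 (0.9961) and Erg (0.9959) for Slc2a4. Trip10, which encodes the CDC42-interacting protein CIP4, was at 44.4 FPKM in Ctrl and 22.4 FPKM in cKO hearts, and Hyal2 was at 8.87 and 12.3 FPKM. With 6 hearts in 2 groups, such values describe these libraries only.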

How the data were processed

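Poly-A selected RNA of 3 Ctrl and 3 cKO mouse hearts had been sequenced as paired ends. Per the labels and the study's methods, the authors aligned reads with HISAT2 2.0.5, counted them per gene with featureCounts 1.5.0-p3 and computed the deposited FPKM from count and gene length (the other deposited column used). The submitters' processing notes name DESeq2 1.16.1 and build mm9, but 53499 of the 54409 gene IDs shared with GENCODE M21 agreed in both ends with that annotation, so the coordinates are those of GRCm38. Use of strand and treatment of reads with several alignments are not given in the sources used here. The labels give hearts at 12 weeks after tamoxifen; the study's methods speak of mice of that age. FPKM times gene length came out as whole reads (tolerance 0.05 read) for 100% of values, with implied library sizes 0.913 to 0.980 times the read total in Ctrl and 1.06 times in cKO, so the authors' values were already scaled between libraries.

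Log2(FPKM + 1) of genes averaging 0.5 FPKM or more was fitted with limma 3.58.1 in R 4.3.3 (two-sided, with an intensity trend and without covariates), and p-values of 12944 genes were adjusted by Benjamini-Hochberg; the fit was tested on simulated data. Ratios within a heart were compared by exact permutation. Tried in place of these were 0.1 as pseudocount, a minimum of 1 FPKM or none, 2 other scalings, no trend, voom on recovered reads, a replicate block and leaving out each heart. Named were the 10 genes, tested hexokinases and further genes of the complex, and from each other list up to 4 genes past the threshold by size of change plus the most abundant one; a result so selected is not reported here, though it remains in the counts. The members and lists were chosen with earlier results of these data known. Replicates were taken to be separate animals. The p-values set the group difference against the spread between them, and the limma variances also draw on all genes tested.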

Additional observations from a re-analysis of the deposited data

How the results depend on the processing

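Over 14 alternatives each, the 10 genes kept direction and side of the threshold in 138 of 140 comparisons; the exceptions were Pdha1 without Ctrl replicate 1 and the sign of Pdk4. Slc2a1 ranged from 0.96 to 1.20 and Slc2a4 from -1.01 to -0.81 on the log2 scale. The 31 other genes selected did so in 409 of 434 comparisons, with 18 calls lost, 3 gained and 4 signs reversed. Deviations of same-numbered hearts were weakly correlated (-0.055, 0.175 and -0.015), which cannot exclude pairing. The study's methods call the controls littermates, and the labels do not say whether replicate numbers follow litters. With the replicate block 1 member was higher and 4 were lower, as without it, while Ldha lost its call (adjusted p = 0.069). Leaving out each heart in turn gave 4 to 5 lower and 1 higher members, and 1400 to 1993 higher and 1434 to 2006 lower genes in the whole table, the lowest without Ctrl replicate 3 (1400 higher) and Ctrl replicate 2 (1434 lower). It reversed some small differences, which ranged from -0.53 to 0.19 for Pdk4, from -0.16 to 0.38 for Txnip and from -0.030 to 0.12 for Bsg (log2), from -0.42 to 1.10 points for the Pdk1 share and from -0.56 to 11.2 points for the Pdk4 share of the kinases, and from -0.028 to 0.0062 for Mpc1 to Mpc2, from -0.164 to 0.040 for Pdha1 to Dlat and from -0.013 to 0.0068 for Pdk2 to Tnnt2. The signs of the Pdk4 difference, the Pdk1 share, Pdha1 to Dlat and Pdk2 to Tnnt2 turned without cKO replicate 2, that of the Pdk4 share without cKO replicate 1, that of Mpc1 to Mpc2 without Ctrl replicate 2, that of Txnip without Ctrl replicate 1 or 2 or cKO replicate 1 and that of Bsg without Ctrl replicate 1. The cause was not tested. The members had 538 (Pdp1) to 25530 (Pdk4) reads in a heart, and the SE was smallest for Pdp1 (0.066) and largest for Pdk4 (0.345). The relation of read number to SE was not tested.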
